A study of Arabidopsis thaliana with 16 samples.

Results

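The 40 genes described here code for the core and linker histones of Arabidopsis thaliana and were chosen as a list by annotation, with no measured value in the rule. All 40 were among the 27628 genes counted in both assays. They fall into 9 families, with 5 H3.1, 3 H3.3, 8 H4, 8 H2B, 4 canonical H2A, 2 H2A.X, 3 H2A.W, 4 H2A.Z and 3 linker H1 genes. The names H3.1 and H3.3 came from RefSeq, and the H2A classes from the published nomenclature of this species. Symbols are given with the locus identifier at first use.

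Histones wrap DNA into nucleosomes: H3 and H4 form the core, dimers of H2A with H2B flank it, and H1 binds the linker DNA between nucleosomes. In plants as in animals, H3.1 and the canonical H2A, H2B and H4 are made mainly in S phase and loaded behind the replication fork, whereas H3.3 and H2A.Z can be loaded at any time, mostly at active genes. H2A.W marks heterochromatin, H2A.X is phosphorylated at DNA breaks, and H2A.Z nucleosomes in Arabidopsis are known for their part in the response to temperature. Unlike most animal replication-dependent histone mRNAs, plant histone mRNAs carry poly(A) tails, so the oligo-dT selection used for RNA-seq keeps them.

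Whole seedlings 10 days old of the wild type Col-0 and of the mutant fust1 were kept at 22 °C or treated at 37 °C. RNA-seq counted poly(A) RNA and Ribo-seq counted ribosome-protected fragments (footprints), each in 2 libraries per genotype and temperature, so 16 libraries in 8 groups. The sources used here give neither the kind of fust1 mutation nor the duration of heat. Nor do they tell if the replicates of a group grew separately, so p-values measure only the spread between these samples, which may be technical. By its title the study concerns FUST1 and translation under heat. The comparisons set heat against 22 °C in each genotype, fust1 against Col-0 at each temperature, and the heat response of fust1 against that of Col-0 (heat by genotype). Translation efficiency (TE) is footprints relative to RNA, and its change is the footprint change minus the RNA change on the log2 scale.

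RNA-seq libraries held 9402134 to 12737375 counts and Ribo-seq libraries 6175906 to 13968790, with the 2 lowest in Col-0 at 37 °C. Levels are read counts relative to library size (CPM) after TMM scaling, which sets the bulk of genes level between libraries. In log2 changes ± is the SE. Levels compare 1 gene or family across libraries only, since gene length was not corrected. TMM factors were 1.34 to 1.52 (RNA) and 1.76 to 1.96 (footprints) at 22 °C but 0.63 to 0.791 and 0.489 to 0.614 at 37 °C. Scaling by library totals instead lowered the median heat change of all genes by 1.03 (Col-0) and 0.921 (fust1) log2 units in RNA, by 1.79 and 1.67 in footprints and by 0.752 and 0.744 in TE. Every heat change is therefore relative to most other genes, and the sources used here name no added standard. All 6 leaf, 6 root and 6 mitotic marker genes passed the count filter in both assays. The 2 RNA-seq libraries of Col-0 at 37 °C stood apart from each other: the summed CPM of the mitotic genes was 82.5 in replicate 1 and 17.8 in replicate 2, against 92.2 to 122 in the other 6 libraries. In bulk seedlings, fewer cells of a type and less RNA per cell cannot be told apart.

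Under heat most histone RNAs fell, and the share of footprints on the 40 genes fell less in Col-0 than in fust1. As a share of all RNA counts, the 40 genes took 0.281% and 0.272% in Col-0 and 0.28% and 0.327% in fust1 at 22 °C, and 0.0863% and 0.0635% in Col-0 and 0.106% and 0.0981% in fust1 at 37 °C. As a share of all footprint counts they took 0.275% and 0.305% in Col-0 and 0.393% and 0.416% in fust1 at 22 °C, and 0.101% and 0.103% in Col-0 and 0.0861% and 0.0935% in fust1 at 37 °C. In both assays the temperatures did not overlap, with 2 libraries per group. In footprints the genotypes did not overlap either, with fust1 above Col-0 at 22 °C and below it at 37 °C. These shares are relative to library totals, a scale on which most genes were lower in heat. In footprints 79.1% of all genes were called lower in Col-0 and 82.0% in fust1, and in RNA 57.8% and 51.3%. A lower footprint share in heat is therefore not in itself particular to histone genes.

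Gene by gene, the quasi-likelihood test of edgeR, with p adjusted over all genes and called at 0.05, found 27 of 40 histone RNAs lower in heat in Col-0, while the other 13 passed in neither direction. Of all 19340 genes tested, 18.2% were lower and 19.2% higher. In fust1 24 histone RNAs fell and 2 rose, against 17.9% and 18.8% of all genes. The median log2 change of the 40 genes was -1.66 in Col-0 and -1.25 in fust1, beside -0.10 and -0.12 over all genes. By library totals 35 histone RNAs were lower and 0 higher in each genotype, beside 57.8% of all genes lower and 4.99% higher in Col-0 and 51.3% and 4.63% in fust1. Of the 39 histone genes with enough footprints, 17 fell and 11 rose in Col-0 on the TMM scale (31.8% and 27.8% of 18445 genes), but 36 fell and 1 rose by library totals (79.1% and 3.76% of genes). In fust1 26 fell and 3 rose (31.2% and 27.6% of genes), and by library totals 37 fell and the other 2 were not called (82.0% of genes lower and 3.69% higher). The gene without enough footprints was HTA4 (AT4G13570), an H2A.Z gene with 0 footprints in all 8 libraries. Its RNA was counted 145, 169, 112 and 120 times in the 4 libraries at 22 °C, and 1 and 0 times in Col-0 and 2 and 4 times in fust1 at 37 °C.

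**Figure D1:**
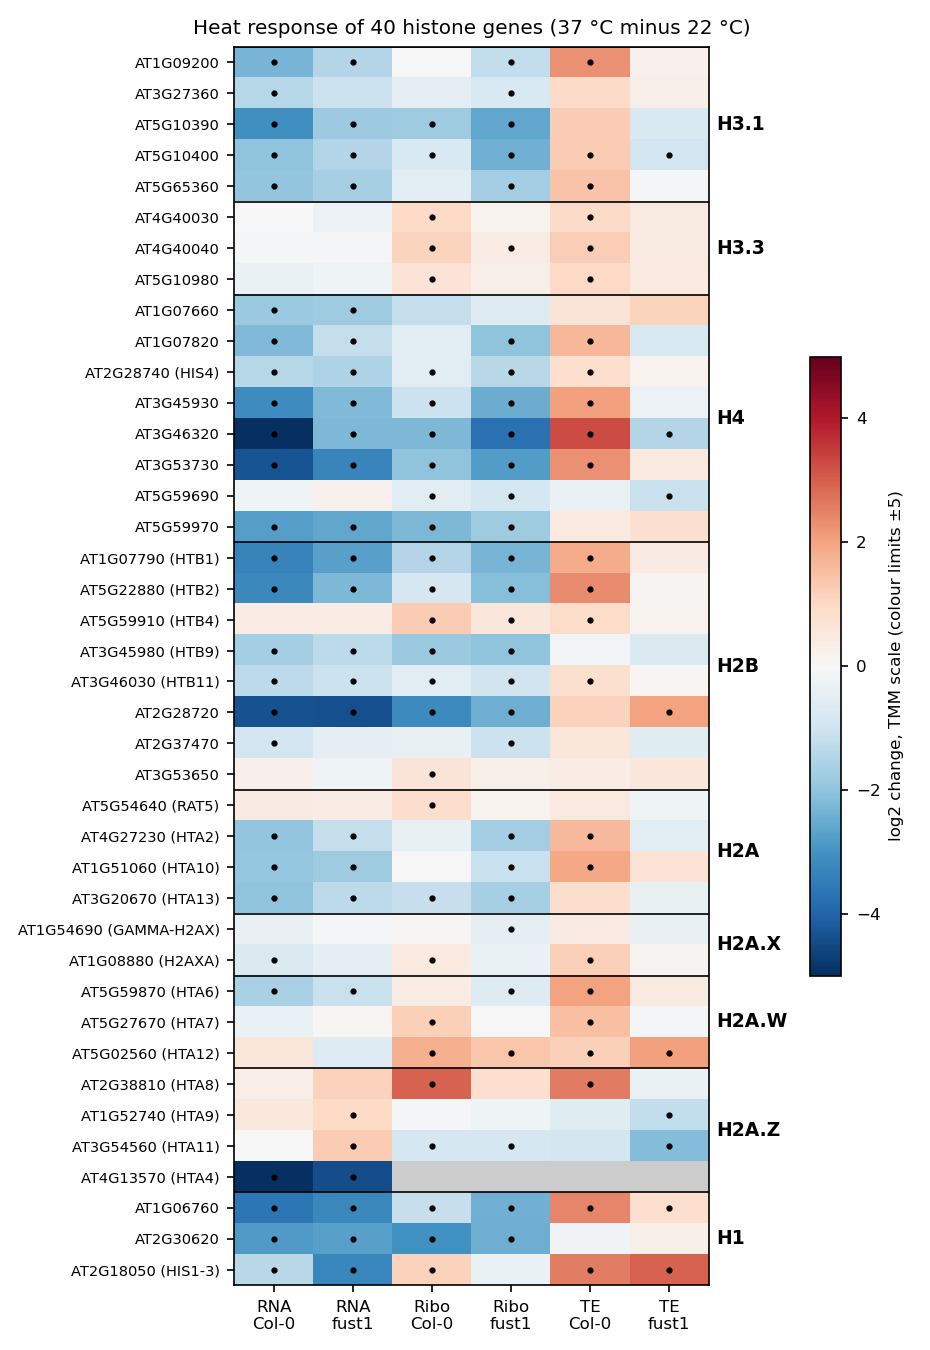
Heat response (37 °C minus 22 °C, log2 on the TMM scale, colour limits ±5) of each of the 40 histone genes (rows, grouped by family) in RNA-seq, Ribo-seq (footprints) and TE for Col-0 and fust1 (columns). Dots mark adjusted p under 0.05 and grey cells were not tested. Most RNA cells are blue; of the 11 footprint rises called in Col-0, 10 are negative by library totals (the other is HTA8), and 24 TE cells carry a dot in Col-0.

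Between the 2 classes of H3, H3.1 RNA fell under heat, whereas H3.3 RNA passed in neither direction on the TMM scale (by library totals it fell by 1.14 in Col-0 and was called lower in fust1 too). Summed over its 5 near-identical copies, H3.1 RNA was 209 and 182 CPM (Col-0, 22 °C), 60.4 and 33.5 (Col-0, 37 °C), 208 and 221 (fust1, 22 °C) and 77.3 and 74.4 (fust1, 37 °C). H3.3 RNA, summed over 3 copies, was 441 and 416 CPM (Col-0, 22 °C), 387 and 412 (Col-0, 37 °C), 436 and 450.2 (fust1, 22 °C) and 409 and 375 (fust1, 37 °C). All 4 H3.1 sums at 37 °C lay below the 4 at 22 °C, and so did those of H3.3, but by far less. The H3.1 sum changed by -2.06 ± 0.26 (SE, adjusted p = 0.000151) in Col-0 and by -1.50 ± 0.26 (SE, adjusted p = 0.00115) in fust1, and that of H3.3 by -0.10 ± 0.19 (SE, adjusted p = 0.702) and -0.18 ± 0.19 (SE, adjusted p = 0.494). Fitted relative to H3.3 in 1 model, the H3.1 change was -1.94 ± 0.28 (SE, adjusted p = 0.000183) in Col-0 and -1.32 ± 0.27 (SE, adjusted p = 0.00239) in fust1. Between genotypes this contrast differed by 0.62 ± 0.38 (SE, adjusted p = 0.661), which did not pass. H3.1 made up 31.3% ± 1.26 (SD, n = 2) of all H3 RNA counts at 22 °C and 10.5% ± 4.24 at 37 °C in Col-0, with single libraries at 13.5% and 7.52%. In fust1 its share went from 32.6% ± 0.477 to 16.2% ± 0.476.

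In footprints H3.1 again lost ground to H3.3 in both genotypes. H3.1 footprints were 159 and 184 CPM (Col-0, 22 °C), 141 and 128 (Col-0, 37 °C), 255 and 257 (fust1, 22 °C) and 86.6 and 93.99 (fust1, 37 °C). The 2 genotypes did not overlap at either temperature, with fust1 higher at 22 °C and lower at 37 °C. H3.3 footprints were 475 and 539.6 CPM (Col-0, 22 °C), 1069 and 942 (Col-0, 37 °C), 638 and 570.3 (fust1, 22 °C) and 732 and 711 (fust1, 37 °C). The H3.1 sum changed by -0.35 ± 0.14 (SE, adjusted p = 0.0311) in Col-0, called in 6 of the 8 fits that left out 1 library, and by -1.50 ± 0.14 (SE, adjusted p = 2.68e-10) in fust1. H3.3 footprints rose by 0.99 ± 0.14 (SE, adjusted p = 5.49e-07) in Col-0 on the TMM scale and fell by 0.81 by library totals, and in fust1 changed by 0.25 ± 0.14 (SE, adjusted p = 0.112), with a fall of 1.42 by totals. Relative to H3.3, a contrast that no library scaling affects, H3.1 footprints fell, with a log2 change of -1.33 ± 0.17 (SE, adjusted p = 1.2e-08) in Col-0 and -1.76 ± 0.17 (SE, adjusted p = 2.91e-11) in fust1. A fall relative to H3.3 was not particular to H3.1, since 56.1% of all rows in Col-0 and 36.4% in fust1 were also called lower. The share of H3.1 among H3 footprints went from 25.2% ± 0.213 to 11.8% ± 0.254 in Col-0, and in fust1 from 29.8% ± 1.75 to 11.1% ± 0.778. The genotype difference of the contrast was -0.43 ± 0.24 (SE, adjusted p = 0.167).

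**Figure D2:**
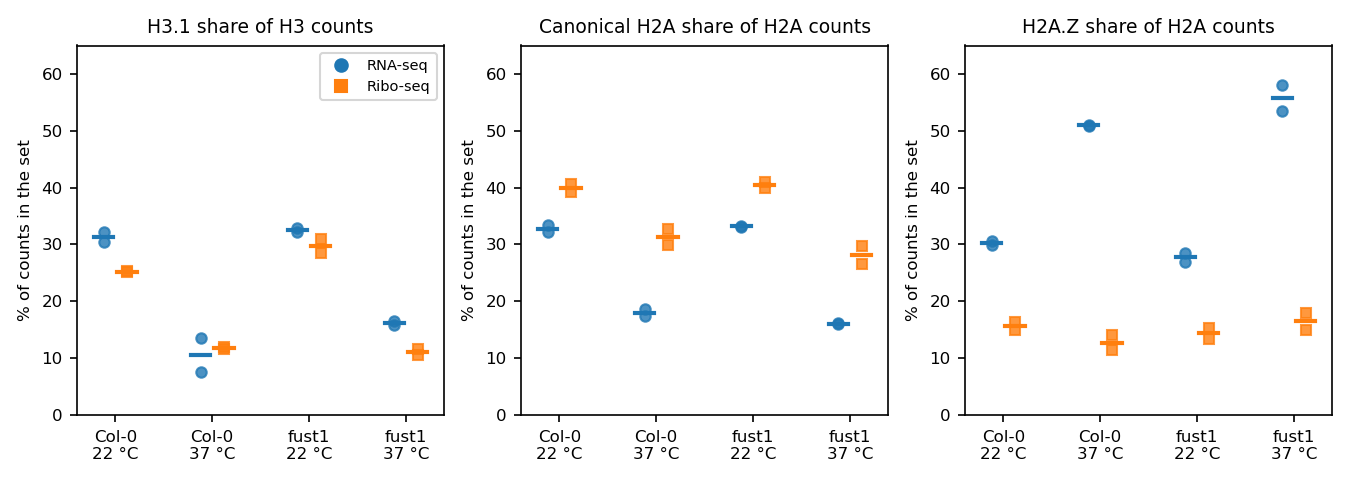
Share of H3.1 among all H3 counts (left), of canonical H2A among all H2A counts (middle) and of H2A.Z among all H2A counts (right), in percent of counts not corrected for length, per library (circles RNA-seq, squares Ribo-seq) with the mean of 2 as a bar. The H3.1 share drops in heat in both assays (in Col-0 RNA from 31.3% to 10.5%), while the H2A.Z share rises in RNA (Col-0 from 30.3% to 51.0%) and is 15.7% and 12.7% in footprints of Col-0 at 22 and 37 °C.

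Of single H3.1 genes, AT1G09200 had the most counts in the family. Its RNA was 47.7 and 43.4 CPM (Col-0, 22 °C), 11.4 and 6.49 (Col-0, 37 °C), 53.4 and 51.9 (fust1, 22 °C) and 19.1 and 19.3 (fust1, 37 °C). Its footprints were 78.9 and 86.2 CPM (Col-0, 22 °C), 80.3 and 81.2 (Col-0, 37 °C), 124 and 124 (fust1, 22 °C) and 54.9 and 50.96 (fust1, 37 °C). Heat lowered its RNA in both genotypes (-2.33 and -1.46 log2), while its footprints passed in neither direction in Col-0 (-0.03 ± 0.14, adjusted p = 0.863) and fell in fust1 (-1.23 ± 0.14, adjusted p = 2.03e-08). AT5G10400, which directly neighbours the H3.1 gene AT5G10390, had RNA levels of 41.4 and 39.1 CPM (Col-0, 22 °C), 12.04 and 7.72 (Col-0, 37 °C), 47.01 and 53.8 (fust1, 22 °C) and 21.8 and 14.96 (fust1, 37 °C). The footprint levels of AT5G10400 were 37.4 and 42.5 CPM (Col-0, 22 °C), 24.8 and 22.5 (Col-0, 37 °C), 60.5 and 61.03 (fust1, 22 °C) and 9.99 and 12.7 (fust1, 37 °C). Its footprints fell in both genotypes, with log2 changes of -0.75 in Col-0 and -2.41 in fust1. AT5G65360 RNA measured 80.8 and 65.7 CPM (Col-0, 22 °C), 23.6 and 13.1 (Col-0, 37 °C), 69.8 and 71.9 (fust1, 22 °C) and 21.9 and 23 (fust1, 37 °C). AT5G65360 footprints measured 18.02 and 26.3 CPM (Col-0, 22 °C), 18.3 and 12.2 (Col-0, 37 °C), 28.3 and 28.3 (fust1, 22 °C) and 5.99 and 10.5 (fust1, 37 °C). They passed the heat test in fust1 (-1.74 ± 0.24, adjusted p = 8.04e-07) and not in Col-0 (-0.54 ± 0.26, adjusted p = 0.0692). The other 2 members, AT3G27360 and AT5G10390, had RNA changes of -1.42 and -3.05 in Col-0, both called. The AT3G27360 value was -2.61 without RNA-seq replicate 1 and -0.82 without replicate 2 of Col-0 at 37 °C, and its call was lost in 3 of the 8 fits that left out 1 library. That of AT5G10390 rested on 9 and 17 counts at 37 °C. Together 5 of 5 H3.1 RNAs fell in Col-0 and 4 of 5 in fust1 (18.2% and 17.9% of all genes). In footprints 2 of 5 and 5 of 5 fell (31.8% and 31.2% of all genes).

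The RNA changes of the 3 H3.3 genes lay between -0.32 and 0.03 in Col-0 and between -0.27 and -0.10 in fust1 and did not pass. AT4G40030 and AT4G40040 lie next to each other. AT4G40030 RNA was 141 and 128 CPM (Col-0, 22 °C), 133 and 143 (Col-0, 37 °C), 149 and 146 (fust1, 22 °C) and 133 and 111 (fust1, 37 °C). AT4G40030 footprints were 218 and 255 CPM (Col-0, 22 °C), 507 and 437 (Col-0, 37 °C), 313 and 276 (fust1, 22 °C) and 331 and 336 (fust1, 37 °C). In RNA the 2 temperatures overlapped in Col-0 and in footprints they did not, with Col-0 at 37 °C the highest group. The RNA of AT4G40040 was 217 and 205 CPM (Col-0, 22 °C), 185 and 205 (Col-0, 37 °C), 200.1 and 212 (fust1, 22 °C) and 194 and 189 (fust1, 37 °C). Footprints of AT4G40040 were 156 and 182 CPM (Col-0, 22 °C), 377 and 361 (Col-0, 37 °C), 221 and 176 (fust1, 22 °C) and 264 and 243 (fust1, 37 °C). The footprint rise in Col-0 was 0.999 for the first, 1.12 for the second and 0.70 for AT5G10980, the third H3.3 gene, all called on the TMM scale, and all 3 turned to falls of 0.80, 0.68 and 1.11 by library totals. In fust1 AT4G40040 alone passed (0.35 ± 0.14, adjusted p = 0.0312; a fall of 1.32 by library totals), and it lost the call in 5 of the 8 fits that left out 1 library.

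H4, whose copies code for a single conserved protein, fell in RNA, with log2 changes of -1.40 ± 0.20 (SE, adjusted p = 0.000345) in Col-0 and -0.93 ± 0.20 (SE, adjusted p = 0.00399) in fust1 when all 8 copies were summed. Summed H4 RNA was 273 and 259 CPM (Col-0, 22 °C), 113 and 89.1 (Col-0, 37 °C), 264 and 283 (fust1, 22 °C) and 143 and 144 (fust1, 37 °C). Summed H4 footprints were 139 and 152 CPM (Col-0, 22 °C), 55.5 and 62.99 (Col-0, 37 °C), 214 and 214 (fust1, 22 °C) and 51.95 and 55.3 (fust1, 37 °C). The footprint sum fell, with a log2 change of -1.30 ± 0.15 (SE, adjusted p = 1.1e-08) in Col-0 and -1.998 ± 0.14 (SE, adjusted p = 1.2e-12) in fust1. No library at 37 °C reached the lowest at 22 °C in either assay. In RNA 7 of 8 copies fell in each genotype (18.2% of all genes in Col-0 and 17.9% in fust1). In footprints 6 of 8 fell in Col-0 and 7 of 8 in fust1 (31.8% and 31.2% of all genes).

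The 8 H4 copies did not move alike. AT5G59690, with the most H4 counts, was the copy whose RNA passed in neither genotype (-0.22 and 0.21). Its RNA was 84.9 and 82.1 CPM (Col-0, 22 °C), 78.99 and 64.7 (Col-0, 37 °C), 73.3 and 90.3 (fust1, 22 °C) and 91.96 and 97.6 (fust1, 37 °C). Its footprints were 18.3 and 21.8 CPM (Col-0, 22 °C), 13.7 and 14 (Col-0, 37 °C), 27.3 and 28.6 (fust1, 22 °C) and 15.3 and 14.9 (fust1, 37 °C). Its share of H4 RNA counts went from a mean of 31.4% to 71.3% in Col-0, and in fust1 from 29.8% to 65.9%. AT3G53730 RNA fell steeply, with levels of 53.8 and 42.4 CPM (Col-0, 22 °C), 3.85 and 0.772 (Col-0, 37 °C), 48.5 and 48.4 (fust1, 22 °C) and 5.84 and 4.08 (fust1, 37 °C). AT3G53730 footprints were 51.3 and 49.7 CPM (Col-0, 22 °C), 11.8 and 13.1 (Col-0, 37 °C), 70.9 and 79.02 (fust1, 22 °C) and 10.5 and 10.9 (fust1, 37 °C). Both readouts fell in both genotypes, in RNA with log2 changes of -4.30 and -3.29. The RNA level of AT3G53730 in Col-0 at 37 °C rested on 32 and 5 counts. AT3G46320 RNA was 15.3 and 16.1 CPM (Col-0, 22 °C), 0.482 and 0.154 (Col-0, 37 °C), 18.2 and 16.3 (fust1, 22 °C) and 4.54 and 2.72 (fust1, 37 °C). AT3G46320 footprints were 22.04 and 26.2 CPM (Col-0, 22 °C), 3.59 and 6.39 (Col-0, 37 °C), 40.04 and 34.9 (fust1, 22 °C) and 3.27 and 2.46 (fust1, 37 °C). Its RNA in Col-0 at 37 °C rested on 4 and 1 counts, and its heat change was -5.50 ± 0.47 (SE, adjusted p = 6.5e-06) in Col-0 and -2.25 ± 0.33 (SE, adjusted p = 0.000488) in fust1. The genotype difference of that RNA response was 3.26 ± 0.62 (SE, adjusted p = 0.121) and did not pass. Near-identical H4 copies can exchange reads, and the sources used here do not say how such reads were assigned, so values of single copies are less certain than the sum.

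H2B, the partner of H2A, fell in RNA, with log2 changes of -0.88 ± 0.21 (SE, adjusted p = 0.00788) in Col-0 and -0.72 ± 0.21 (SE, adjusted p = 0.02) in fust1 when 8 copies were summed, called in 7 and 4 of the 8 fits that left out 1 library. Summed H2B RNA was 461 and 399.8 CPM (Col-0, 22 °C), 266 and 201 (Col-0, 37 °C), 446 and 465 (fust1, 22 °C) and 275 and 277 (fust1, 37 °C). Summed H2B footprints were 356 and 387 CPM (Col-0, 22 °C), 464 and 430.0 (Col-0, 37 °C), 461 and 492 (fust1, 22 °C) and 388 and 372 (fust1, 37 °C). In footprints the sum changed by 0.27 ± 0.13 (SE, adjusted p = 0.0843) in Col-0, which by library totals was a called fall of 1.53, and by -0.33 ± 0.13 (SE, adjusted p = 0.0336) in fust1. The copies were split: 6 of 8 RNAs fell in Col-0 and 5 of 8 in fust1 (18.2% and 17.9% of all genes). On the TMM scale the footprint sum did not follow most copies in Col-0, where 5 fell and 2 rose (median -0.68). In fust1 6 fell and 1 rose (median -1.54). Of all genes 31.8% were lower and 27.8% higher in footprints in Col-0, and 31.2% and 27.6% in fust1. HTB4 (AT5G59910), the copy with the most counts, was not among those that fell. HTB4 RNA was 119 and 107 CPM (Col-0, 22 °C), 169.9 and 121 (Col-0, 37 °C), 125 and 121 (fust1, 22 °C) and 159 and 158 (fust1, 37 °C). HTB4 footprints were 132 and 140.2 CPM (Col-0, 22 °C), 346 and 317 (Col-0, 37 °C), 180.4 and 202 (fust1, 22 °C) and 287 and 272 (fust1, 37 °C). The footprints rose by 1.29 ± 0.14 (SE, adjusted p = 3.43e-09) in Col-0 and 0.55 ± 0.13 (SE, adjusted p = 0.000809) in fust1 on the TMM scale, and fell by 0.51 and 1.13 by library totals. HTB4 took 36.6% of H2B footprints at 22 °C and 74.2% at 37 °C in Col-0, and 40.1% and 73.6% in fust1.

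HTB9 (AT3G45980) and HTB2 (AT5G22880) fell in both assays and both genotypes. HTB9 RNA was 106 and 87.5 CPM (Col-0, 22 °C), 32.6 and 26.9 (Col-0, 37 °C), 92.4 and 95.6 (fust1, 22 °C) and 36.3 and 40.4 (fust1, 37 °C). HTB9 footprints were 88.5 and 90.9 CPM (Col-0, 22 °C), 21.2 and 28.6 (Col-0, 37 °C), 111 and 107 (fust1, 22 °C) and 21.4 and 32.4 (fust1, 37 °C). In Col-0 its RNA changed by -1.70 and its footprints by -1.84. HTB2 RNA was 68.7 and 53.5 CPM (Col-0, 22 °C), 7.95 and 5.10 (Col-0, 37 °C), 71.5 and 78.2 (fust1, 22 °C) and 15.2 and 16.3 (fust1, 37 °C). HTB2 footprints were 25.6 and 26.9 CPM (Col-0, 22 °C), 14.4 and 14.6 (Col-0, 37 °C), 38.3 and 44.3 (fust1, 22 °C) and 10.5 and 8.61 (fust1, 37 °C). In Col-0 the log2 change of HTB2 was -3.21 ± 0.25 in RNA and -0.86 ± 0.21 in footprints, and its TE rose (2.35 ± 0.32, adjusted p = 2.11e-05); in fust1 the changes were -2.25 and -2.12. The steepest RNA fall of the family was that of AT2G28720, from 37.9 and 32.4 to 1.44 and 2.01 CPM in Col-0. In fust1 it went from 38.2 and 34.4 to 1.69 and 1.73 CPM. At 37 °C these levels rested on 12 to 14 counts a library. AT3G53650 was not called in RNA (0.25 and -0.23). Of the other 3, HTB1 (AT1G07790) and HTB11 (AT3G46030) fell in RNA in both genotypes, and AT2G37470 in Col-0 (-0.98, called in 7 of 8 fits without 1 library).

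The H2A classes changed their proportions. Canonical H2A RNA fell, with a log2 change of -1.37 ± 0.21 (SE, adjusted p = 0.000538) in Col-0 and -1.07 ± 0.21 (SE, adjusted p = 0.00237) in fust1, and H2A.W RNA by -0.83 ± 0.21 (SE, adjusted p = 0.0106) and -0.61 ± 0.21 (SE, adjusted p = 0.041), called in 6 and 2 of the 8 fits that left out 1 library. H2A.X RNA did not pass (-0.61 ± 0.23, adjusted p = 0.0521 and -0.34 ± 0.22, adjusted p = 0.257). H2A.Z RNA rose in fust1 by 0.99 ± 0.23 (SE, adjusted p = 0.0062), which by library totals was 0.06 and not called, and in Col-0 changed by 0.26 ± 0.23 (SE, adjusted p = 0.385), a called fall of 0.75 by totals. Summed H2A.Z RNA was 129.7 and 123 CPM (Col-0, 22 °C), 181 and 122 (Col-0, 37 °C), 111 and 126 (fust1, 22 °C) and 212 and 260.3 (fust1, 37 °C). Summed canonical H2A RNA was 136 and 138 CPM (Col-0, 22 °C), 61.6 and 44.5 (Col-0, 37 °C), 137 and 146 (fust1, 22 °C) and 63.2 and 72.2 (fust1, 37 °C). Relative to H2A.Z, canonical H2A RNA fell, with a log2 change of -1.62 ± 0.32 (SE, adjusted p = 0.000757) in Col-0 and -2.06 ± 0.32 (SE, adjusted p = 5.32e-05) in fust1. H2A.Z went from 30.3% ± 0.477 to 50.97% ± 0.177 of H2A RNA counts in Col-0, and in fust1 from 27.8% ± 1.14 to 55.8% ± 3.29 (SD, n = 2), and canonical H2A from 32.8% ± 0.920 to 17.96% ± 0.874 and from 33.2% ± 0.0709 to 16.02% ± 0.140.

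H2A.Z held a smaller share of H2A footprints than of H2A RNA in every library. These shares were not corrected for length, so their gap between assays is not a measure of translation. HTA4 added RNA counts (a mean of 8.10% of H2A.Z RNA in Col-0 at 22 °C) but 0 footprints. Summed H2A.Z footprints were 39.6 and 38.6 CPM (Col-0, 22 °C), 31.01 and 42.6 (Col-0, 37 °C), 54.4 and 48.9 (fust1, 22 °C) and 34.3 and 43.2 (fust1, 37 °C). Summed canonical H2A footprints were 97.9 and 101 CPM (Col-0, 22 °C), 89.4 and 90.4 (Col-0, 37 °C), 145 and 147 (fust1, 22 °C) and 67.9 and 63.9 (fust1, 37 °C). H2A.Z took 15.7% ± 0.978 of H2A footprints at 22 °C and 12.7% ± 1.94 at 37 °C in Col-0, and 14.4% ± 1.41 and 16.5% ± 2.08 in fust1. Canonical H2A took 39.96% ± 0.935 and then 31.4% ± 2.01 in Col-0, and 40.5% ± 0.647 and then 28.1% ± 2.20 in fust1, and H2A.W went from 20.9% ± 1.20 to 30.6% ± 4.24 in Col-0. The change of canonical H2A relative to H2A.Z was -0.03 ± 0.26 (SE, adjusted p = 0.935) in Col-0 and -0.71 ± 0.26 (SE, adjusted p = 0.017) in fust1, where leaving out either 22 °C library or replicate 2 at 37 °C ended the call (-0.79, -0.63 and -0.52). In TE, canonical H2A gained on H2A.Z by 1.59 ± 0.38 (SE, adjusted p = 0.003) and 1.34 ± 0.38 (SE, adjusted p = 0.00501).

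Within canonical H2A, HTA10, HTA13 and HTA2 fell in RNA and RAT5 did not. HTA10 (AT1G51060) RNA was 61.1 and 62.4 CPM (Col-0, 22 °C), 20.3 and 11.9 (Col-0, 37 °C), 53.8 and 63.9 (fust1, 22 °C) and 16.6 and 17.9 (fust1, 37 °C). HTA10 footprints were 51.7 and 54.2 CPM (Col-0, 22 °C), 54.5 and 52.3 (Col-0, 37 °C), 69.2 and 71.4 (fust1, 22 °C) and 35.2 and 30.7 (fust1, 37 °C). The footprints passed in neither direction in Col-0 (0.01 ± 0.16, adjusted p = 0.949) and fell in fust1 (-1.10 ± 0.15, adjusted p = 5.33e-07), although RNA fell in both. HTA13 (AT3G20670) RNA was 27.4 and 25.6 CPM (Col-0, 22 °C), 9.15 and 3.71 (Col-0, 37 °C), 30.1 and 35.5 (fust1, 22 °C) and 9.47 and 17.3 (fust1, 37 °C). HTA13 footprints were 24.6 and 25.6 CPM (Col-0, 22 °C), 12.4 and 10.3 (Col-0, 37 °C), 42.7 and 43.96 (fust1, 22 °C) and 13.8 and 13.7 (fust1, 37 °C). Both readouts of HTA13 fell in both genotypes, the RNA call in fust1 being lost in 2 of the 8 fits that left out 1 library. HTA2 (AT4G27230) RNA was 31.1 and 32.03 CPM (Col-0, 22 °C), 8.79 and 7.10 (Col-0, 37 °C), 32.7 and 32.5 (fust1, 22 °C) and 16.5 and 12.1 (fust1, 37 °C). HTA2 footprints were 13.8 and 13.2 CPM (Col-0, 22 °C), 11.1 and 10.04 (Col-0, 37 °C), 21.5 and 19.6 (fust1, 22 °C) and 6.72 and 5.74 (fust1, 37 °C). They passed the heat test in fust1 (-1.73) and not in Col-0 (-0.35). RAT5 (AT5G54640), known from mutants that resist Agrobacterium transformation, had RNA changes of 0.40 and 0.38, not called, and a footprint change of 0.90 ± 0.25 (SE, adjusted p = 0.00301) in Col-0 (a called fall of 0.89 by library totals).

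Of the H2A.X pair, H2AXA (AT1G08880) RNA was 54.2 and 46.6 CPM (Col-0, 22 °C), 37.6 and 23.9 (Col-0, 37 °C), 51.5 and 48.3 (fust1, 22 °C) and 39.8 and 33.6 (fust1, 37 °C). H2AXA footprints were 34.3 and 37.8 CPM (Col-0, 22 °C), 43.1 and 57.5 (Col-0, 37 °C), 52.5 and 46.7 (fust1, 22 °C) and 36.5 and 42.9 (fust1, 37 °C). RNA passed as lower in Col-0 (-0.71 ± 0.23, adjusted p = 0.0309), while footprints passed as higher there on the TMM scale (0.48 ± 0.17, adjusted p = 0.0173) and as lower by library totals (-1.31). The RNA call was lost in 3 of the 8 fits that left out 1 library (-1.07 to -0.42) and the footprint call in 2 of 8, with a value of 0.18 without Ribo-seq replicate 2 of Col-0 at 37 °C. GAMMA-H2AX (AT1G54690) RNA was 14.9 and 20.5 CPM (Col-0, 22 °C), 17.3 and 10.04 (Col-0, 37 °C), 17.8 and 20.7 (fust1, 22 °C) and 18.8 and 17.1 (fust1, 37 °C). GAMMA-H2AX footprints were 20.9 and 23.6 CPM (Col-0, 22 °C), 17.6 and 27.99 (Col-0, 37 °C), 36.5 and 40.2 (fust1, 22 °C) and 23.98 and 31.4 (fust1, 37 °C). Of its 4 heat tests in RNA and footprints, the footprint fall in fust1 passed (-0.46 ± 0.19, adjusted p = 0.0358), and was lost in 3 of the 8 fits that left out 1 library.

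The H2A.W genes were split. HTA6 (AT5G59870) RNA was 54.4 and 49.2 CPM (Col-0, 22 °C), 24.3 and 8.65 (Col-0, 37 °C), 60.6 and 61.4 (fust1, 22 °C) and 33.9 and 23.2 (fust1, 37 °C). HTA6 footprints were 34.2 and 41.8 CPM (Col-0, 22 °C), 56.8 and 41.7 (Col-0, 37 °C), 48.8 and 65.4 (fust1, 22 °C) and 37.4 and 34.8 (fust1, 37 °C). Its RNA fell in both genotypes (-1.63 and -1.10) and its footprints in fust1 (-0.66). The 8 fits that left out 1 library lost the RNA call in 1 for Col-0 and in 6 for fust1, and the footprint call in 1. HTA7 (AT5G27670) RNA was 27.7 and 29.2 CPM (Col-0, 22 °C), 25.3 and 19.9 (Col-0, 37 °C), 24.2 and 31.1 (fust1, 22 °C) and 23.5 and 35.7 (fust1, 37 °C). HTA7 footprints were 9.07 and 7.60 CPM (Col-0, 22 °C), 16.98 and 20.7 (Col-0, 37 °C), 12.2 and 13.2 (fust1, 22 °C) and 13.6 and 12.3 (fust1, 37 °C). Its RNA passed in neither genotype, and its footprints rose in Col-0 by 1.17 ± 0.23 (SE, adjusted p = 7.98e-05) on the TMM scale against a called fall of 0.62 by library totals. HTA12 (AT5G02560) was the H2A.W gene whose footprints rose in both genotypes (1.78 and 1.40), which by library totals became -0.010 and -0.28, neither called.

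Among H2A.Z genes, HTA9 (AT1G52740) held the most counts, with RNA at 79.3 and 76.8 CPM (Col-0, 22 °C), 120.2 and 103 (Col-0, 37 °C), 66.2 and 77.1 (fust1, 22 °C) and 125 and 164 (fust1, 37 °C). HTA9 footprints were 25.7 and 24.6 CPM (Col-0, 22 °C), 20.9 and 26.2 (Col-0, 37 °C), 29.6 and 25.7 (fust1, 22 °C) and 20.9 and 26.8 (fust1, 37 °C). Its RNA rose with heat in fust1 on the TMM scale (1.01 ± 0.20, adjusted p = 0.00317; 0.07 by library totals, not called), and its footprints did not pass in either genotype. HTA11 (AT3G54560) RNA was 30.7 and 30.2 CPM (Col-0, 22 °C), 45.2 and 15.8 (Col-0, 37 °C), 30.4 and 31.1 (fust1, 22 °C) and 70.3 and 78.1 (fust1, 37 °C). HTA11 footprints were 13.1 and 13.02 CPM (Col-0, 22 °C), 3.59 and 10.3 (Col-0, 37 °C), 23.3 and 21.4 (fust1, 22 °C) and 9.81 and 13.9 (fust1, 37 °C). The 2 Col-0 RNA libraries at 37 °C lay on either side of those at 22 °C, so the change there was 0.01 ± 0.37 (SE, adjusted p = 0.987), against a rise of 1.27 ± 0.37 (SE, adjusted p = 0.0258) in fust1 (0.34 by library totals, not called), a call lost in 5 of the 8 fits that left out 1 library. Its footprints fell in both (-0.89 and -0.89), and the Col-0 value was -1.94 without Ribo-seq replicate 2 of Col-0 at 37 °C but -0.42 and not called without replicate 1. HTA8 (AT2G38810) RNA was 8.59 and 6.62 CPM (Col-0, 22 °C), 15.3 and 3.40 (Col-0, 37 °C), 6.0 and 9.57 (fust1, 22 °C) and 16.99 and 17.7 (fust1, 37 °C). HTA8 footprints were 0.704 and 0.930 CPM (Col-0, 22 °C), 6.53 and 6.09 (Col-0, 37 °C), 1.48 and 1.87 (fust1, 22 °C) and 3.63 and 2.46 (fust1, 37 °C). In Col-0 they came from 17 and 18 counts at 22 °C and 20 and 20 at 37 °C, with a rise of 2.95 ± 0.48 (SE, adjusted p = 5.22e-06), or 1.16 by library totals, the 1 footprint rise in Col-0 still called by that scaling.

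**Figure D3:**
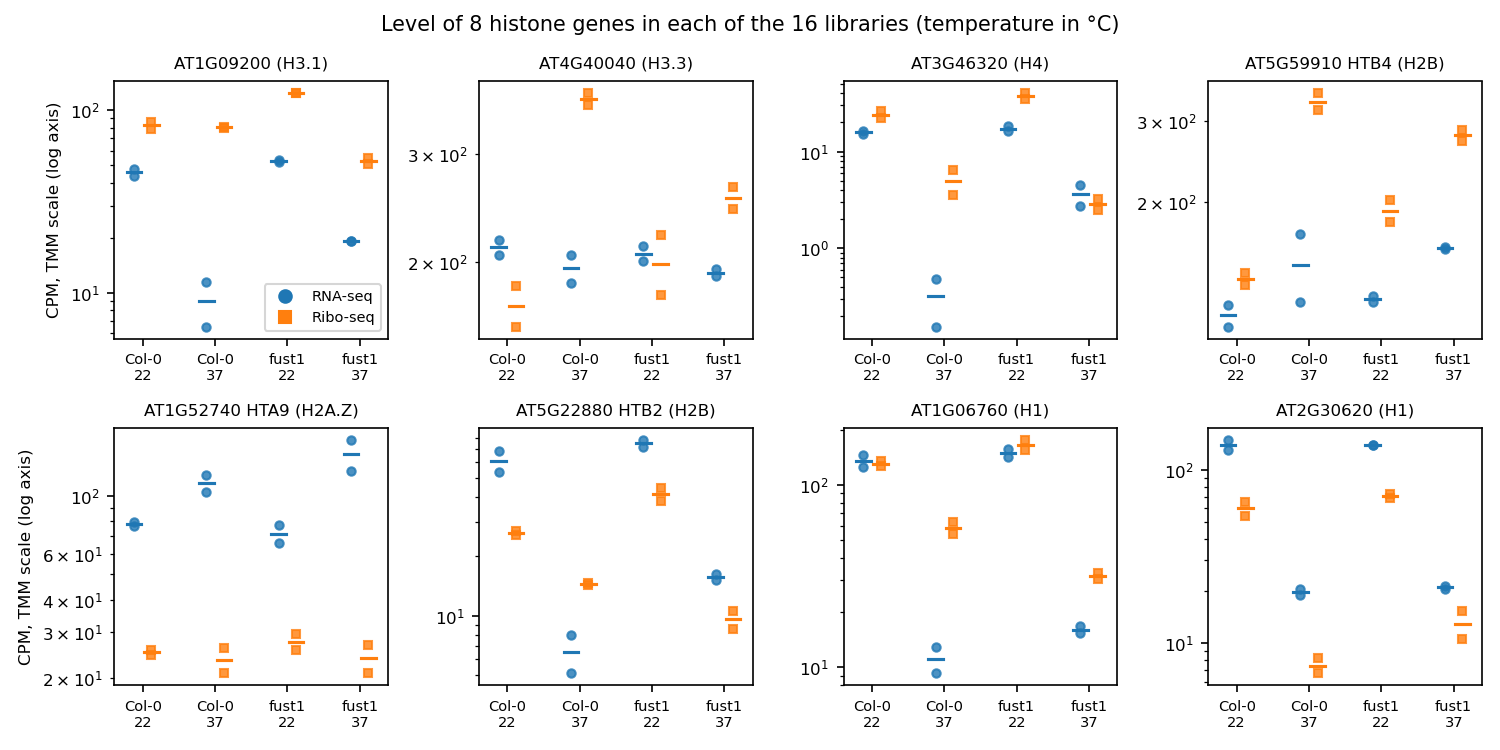
Level of 8 histone genes in each of the 16 libraries, in CPM on the TMM scale (log axis, own range per panel), for RNA-seq (circles) and Ribo-seq (squares), with the mean of 2 libraries as a bar. In AT1G09200 (H3.1) the RNA of Col-0 falls in heat (47.7 and 43.4 to 11.4 and 6.49 CPM) and its footprints do not (78.9 and 86.2 to 80.3 and 81.2 CPM); the footprint rises of AT4G40040 and HTB4 at 37 °C turn to falls by library totals.

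Linker histone RNA fell most of all 9 families, with log2 changes of -3.12 ± 0.20 (SE, adjusted p = 5.78e-07) in Col-0 and -2.97 ± 0.20 (SE, adjusted p = 9.38e-07) in fust1. Summed H1 RNA was 299 and 260.2 CPM (Col-0, 22 °C), 32.8 and 31.7 (Col-0, 37 °C), 309 and 289 (fust1, 22 °C) and 38.5 and 37.6 (fust1, 37 °C). Summed H1 footprints were 194 and 191 CPM (Col-0, 22 °C), 73.8 and 64.8 (Col-0, 37 °C), 253 and 227 (fust1, 22 °C) and 42.9 and 50.1 (fust1, 37 °C). The footprint sum fell, with a log2 change of -1.48 ± 0.15 (SE, adjusted p = 1.1e-09) in Col-0 and -2.36 ± 0.15 (SE, adjusted p = 5.69e-14) in fust1. The 3 H1 genes differed in how footprints followed RNA. AT1G06760 RNA was 146 and 126 CPM (Col-0, 22 °C), 12.9 and 9.27 (Col-0, 37 °C), 157 and 142 (fust1, 22 °C) and 16.9 and 15.3 (fust1, 37 °C). AT1G06760 footprints were 127 and 135 CPM (Col-0, 22 °C), 62.4 and 54.2 (Col-0, 37 °C), 177 and 156 (fust1, 22 °C) and 30.7 and 32.8 (fust1, 37 °C). RNA fell in both genotypes (-3.61 ± 0.23 and -3.21 ± 0.22), and TE rose on the TMM scale by 2.44 ± 0.26 (SE, adjusted p = 1.92e-06) in Col-0 and 0.82 ± 0.25 (SE, adjusted p = 0.0219) in fust1, where it was 0.0686 and not called by library totals and lost the call in 5 of the 16 fits that left out 1 library. AT2G30620 RNA was 149 and 131 CPM (Col-0, 22 °C), 18.9 and 20.5 (Col-0, 37 °C), 139 and 139.8 (fust1, 22 °C) and 20.6 and 21.3 (fust1, 37 °C). AT2G30620 footprints were 65.3 and 54.3 CPM (Col-0, 22 °C), 8.16 and 6.69 (Col-0, 37 °C), 72.5 and 68.7 (fust1, 22 °C) and 10.5 and 15.3 (fust1, 37 °C). In Col-0 its footprints changed by -3.01 and its RNA by -2.83, and Col-0 footprints lay below those of fust1 at 37 °C. HIS1-3 (AT2G18050), a linker histone variant known to be induced by drought, was the lowest of the 3 in counts. HIS1-3 RNA was 3.99 and 3.28 CPM (Col-0, 22 °C), 0.963 and 1.85 (Col-0, 37 °C), 12.2 and 7.41 (fust1, 22 °C) and 1.04 and 0.989 (fust1, 37 °C). HIS1-3 footprints were 2.03 and 1.19 CPM (Col-0, 22 °C), 3.26 and 3.96 (Col-0, 37 °C), 2.59 and 2.05 (fust1, 22 °C) and 1.63 and 2.05 (fust1, 37 °C). Its RNA fell in both genotypes (-1.38 ± 0.50, adjusted p = 0.0476 and -3.26 ± 0.51, adjusted p = 0.000664), and its footprints in Col-0 rose by 1.15 ± 0.49 (SE, adjusted p = 0.0473) from 10 and 13 counts at 37 °C, but by library totals were lower by 0.64, not called. Both Col-0 calls were lost in 7 of the 8 fits that left out 1 library.

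Set against H3.3 in the same fit, 6 of the other 8 families were lower in RNA under heat in Col-0 and 4 in fust1, where H2A.Z was higher (1.18 ± 0.26, adjusted p = 0.00319); of all rows tested that way 15.8% and 14.0% were lower. In footprints 7 of 8 families were lower than H3.3 in Col-0 and 8 of 8 in fust1, but so were 56.1% and 36.4% of all rows. H1 stood lowest (-2.47 and -2.62), followed by H4 (-2.28 and -2.26). Set against H2A.Z, 7 of 8 families were lower in RNA in Col-0 and 8 of 8 in fust1, with 19.9% and 48.3% of all rows lower. In footprints 2 of 8 (H4 and H1) and 4 of 8 (H3.1, H4, H2A and H1) were lower than H2A.Z, beside 28.2% and 20.0% of rows. H3.3 was higher than H2A.Z in footprints in both genotypes (1.12 ± 0.29, adjusted p = 0.000752 and 0.69 ± 0.28, adjusted p = 0.0345).

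TE of histone genes rose in heat in Col-0, by a median of 1.19 log2 units over 39 genes against -0.00 over all 17816 genes. There 24 histone genes were called higher and the other 15 passed in neither direction, while 15.5% of all genes were higher and 21.5% lower. By library totals 8 were higher and 4 lower, against 3.17% and 34.9% of genes. In fust1 4 histone genes were higher and 5 lower, against 12.5% and 15.7% of genes, with a median of 0.13; by library totals these were 2 and 12, against 3.61% and 33.3%. Other lists had TE changes in the same comparison: of 14 S-phase genes 8 were higher and 2 lower in Col-0 (median 1.02), of 6 mitotic genes 2 were higher (median 1.52), of 6 root markers 2 were higher (median 0.89), of 26 chaperone and remodeller genes 1 was higher and 7 lower (median -0.48), and of 6 leaf markers 4 were lower (median -1.17). In fust1 the S-phase genes had 1 higher and 4 lower, and the mitotic genes passed in neither direction. By family, TE in Col-0 rose for H3.1 (1.71 ± 0.30, adjusted p = 0.000257), H1 (1.64 ± 0.23, adjusted p = 3.13e-05), H2A.W (1.58 ± 0.27, adjusted p = 0.000249), H2A (1.22 ± 0.24, adjusted p = 0.000734), H2B (1.15 ± 0.24, adjusted p = 0.00119), H3.3 (1.09 ± 0.23, adjusted p = 0.00129) and H2A.X (0.94 ± 0.30, adjusted p = 0.0213), and by library totals the last 5 were no longer called. The sums of H4 (0.10 ± 0.23, adjusted p = 0.77) and H2A.Z (-0.35 ± 0.30, adjusted p = 0.377) did not pass in Col-0, and both fell in fust1 (-1.07 ± 0.23, adjusted p = 0.00212 and -1.41 ± 0.29, adjusted p = 0.00161). The H4 sum did not follow most of its copies. Of 8 copies 5 were higher in Col-0 and 0 lower (median 1.26), and in fust1 2 were lower and 0 higher (median -0.06). AT5G59690, with a mean of 71.3% of H4 RNA counts in Col-0 at 37 °C, had TE changes of -0.32 (not called) and -1.11 (called). Without replicate 1 of the Col-0 37 °C RNA-seq, the H3.1 value in Col-0 was 2.20, and without replicate 2 it was 1.35. The H3.1 TE change relative to H3.3 did not pass in Col-0 (0.60 ± 0.32, adjusted p = 0.14), but was 1.15 and called without that replicate 1, and 0.21 without replicate 2. Single genes with high TE gains in Col-0 were AT3G46320 (3.25), HTA8 (2.62), HIS1-3 (2.54), AT1G06760 (2.44), HTB2 (2.35) and AT1G09200 (2.29). The first 3 of these rested on few counts in Col-0 at 37 °C. AT3G46320 had 4 and 1 RNA counts and HTA8 20 and 20 footprints. HIS1-3 had 8 and 12 RNA counts and 10 and 13 footprints.

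At 22 °C 0 of 40 histone RNAs were called between genotypes in edgeR and in DESeq2, with 1 at an unadjusted p under 0.05; of all genes 0.0465% were higher and 0.0103% lower in fust1. Histone footprints were higher in fust1, by a median of 0.50 against -0.03 over all genes. Of 39 genes 13 were higher and the other 26 passed in neither direction (2.31% of all genes higher, 2.07% lower). They were 4 H3.1 genes, 3 H4, 2 H2B and 1 each of H2A, H2A.X, H2A.W and H2A.Z. Family sums were higher for H3.1 (0.58 ± 0.13, adjusted p = 0.00912), H4 (0.55 ± 0.13, adjusted p = 0.0125), H2A (0.55 ± 0.13, adjusted p = 0.0123), H2A.X (0.59 ± 0.15, adjusted p = 0.0212) and H2A.W (0.53 ± 0.15, adjusted p = 0.0372), while H3.3 did not pass (0.25 ± 0.14, adjusted p = 0.355). These calls depended on which libraries were kept. Without replicate 1 of Col-0 or replicate 2 of fust1 at 22 °C 0 histone genes were called, without replicate 2 of Col-0 or replicate 1 of fust1 at 22 °C 2 were, and without either 37 °C library of fust1 21 were. TE at 22 °C gave 0 calls in edgeR and in DESeq2, with 3 genes at an unadjusted p under 0.05 (0.00% of all genes higher and 0.00561% lower).

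At 37 °C the direction in footprints was the opposite. In fust1 6 histone genes were lower and 1 higher than in Col-0, with a median of -0.35 beside 0.06 over all genes, of which 4.62% were lower and 6.11% higher. The lower genes were AT5G10400 (-1.05 ± 0.21, adjusted p = 0.00189), AT1G06760 (-0.87 ± 0.16, adjusted p = 0.000747), HTA10 (-0.70 ± 0.17, adjusted p = 0.0065), AT1G09200 (-0.61 ± 0.15, adjusted p = 0.00828), AT4G40040 (-0.54 ± 0.14, adjusted p = 0.0142) and AT4G40030 (-0.50 ± 0.14, adjusted p = 0.0198), and the higher 1 was AT2G30620 (0.82 ± 0.27, adjusted p = 0.0487), which lost the call in 7 of the 8 fits that left out 1 library (0.58 to 1.12). Of the 6 lower genes, AT1G09200, AT4G40040 and AT4G40030 lost it in 3 and HTA10 in 2. Without Ribo-seq replicate 1 of Col-0 at 37 °C 2 genes were called, without replicate 2 of fust1 at 37 °C 3, and by library totals 3. Of family sums, H3.1 (-0.57 ± 0.14, adjusted p = 0.00907), H1 (-0.57 ± 0.15, adjusted p = 0.0163) and H3.3 (-0.48 ± 0.14, adjusted p = 0.0237) were lower, the first 2 called in 6 and the last in 4 of the 8 fits that left out 1 library, while canonical H2A (-0.45 ± 0.14, adjusted p = 0.044) was called in 0 of 8. In RNA 0 of 40 were called in edgeR, 4 in DESeq2 and 13 at an unadjusted p under 0.05 (0.0155% of all genes higher, 0.0362% lower), with 35 of 40 estimates above 0 and a median of 0.39. Without replicate 1 of the Col-0 37 °C RNA-seq, 11 were called. TE was lower in fust1 for 6 genes (0.180% of all genes lower, 1.14% higher): AT3G46320 (-4.21), AT5G10400 (-1.93), HTB2 (-1.86), AT1G09200 (-1.69), HTA2 (-1.61) and AT1G06760 (-1.40). That count was 14 without RNA-seq replicate 1 and 1 without Ribo-seq replicate 1 of Col-0 at 37 °C, and 3 without RNA-seq replicate 1 and 2 without Ribo-seq replicate 2 of fust1 at 37 °C. With only the 37 °C groups in the fit it was 0, while in the fit of all groups 20 genes had an unadjusted p under 0.05 and DESeq2 called 7.

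The heat response of histone footprints differed between the genotypes. Where called, it was lower in fust1, as a larger fall or, on the TMM scale, as a smaller rise or a fall in place of a rise. The H3.3 sum changed by 0.99 in Col-0 and 0.25 in fust1, and HTB4 by 1.29 and 0.55. AT2G30620, not called, fell more in Col-0 (-3.01 against -2.43). Heat by genotype gave 15 of 39 genes called, all lower, against 3.21% of all genes lower and 5.49% higher, and a median of -0.78 beside 0.08. Leaving out 1 library gave 7 to 13 calls, with 7 without replicate 1 of Col-0 at 22 °C, 8 without replicate 1 of Col-0 at 37 °C and 9 without either fust1 library at 22 °C; by library totals there were 8. By family the difference was called for 8 of 9. It was -1.15 ± 0.19 (SE) for H3.1, -1.01 ± 0.22 for H2A.W, -1.002 ± 0.20 for H2A, -0.89 ± 0.20 for H1, -0.73 ± 0.19 for H3.3, -0.71 ± 0.23 for H2A.X, -0.70 ± 0.20 for H4 and -0.60 ± 0.19 for H2B, with edgeR adjusted p from 0.00036 to 0.0474. H3.1, H2A and H2A.W were called in all 8 fits that left out 1 library and H1 in 7, but H3.3 in 4, H2A.X in 2, H4 in 1 and H2B in 0. H2A.Z was not called (-0.33 ± 0.24, adjusted p = 0.449). Of single genes, AT5G10400 (-1.65 ± 0.26, adjusted p = 0.00019), AT1G09200 (-1.20 ± 0.20, adjusted p = 0.000339), AT1G06760 (-1.22 ± 0.21, adjusted p = 0.000465), HTA10 (-1.11 ± 0.22, adjusted p = 0.00171) and HTB2 (-1.27 ± 0.29, adjusted p = 0.00695) were called in all 8 such fits. The comparisons share their 4 groups, so this result restates the genotype differences at 22 °C and at 37 °C as 1 difference. Families differed in how much each temperature gave. The sums of H4 and H2A.X were higher in fust1 at 22 °C (0.55 and 0.59). At 37 °C they did not pass in edgeR (-0.14 ± 0.15, adjusted p = 0.596 and -0.12 ± 0.17, adjusted p = 0.708).

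**Figure D4:**
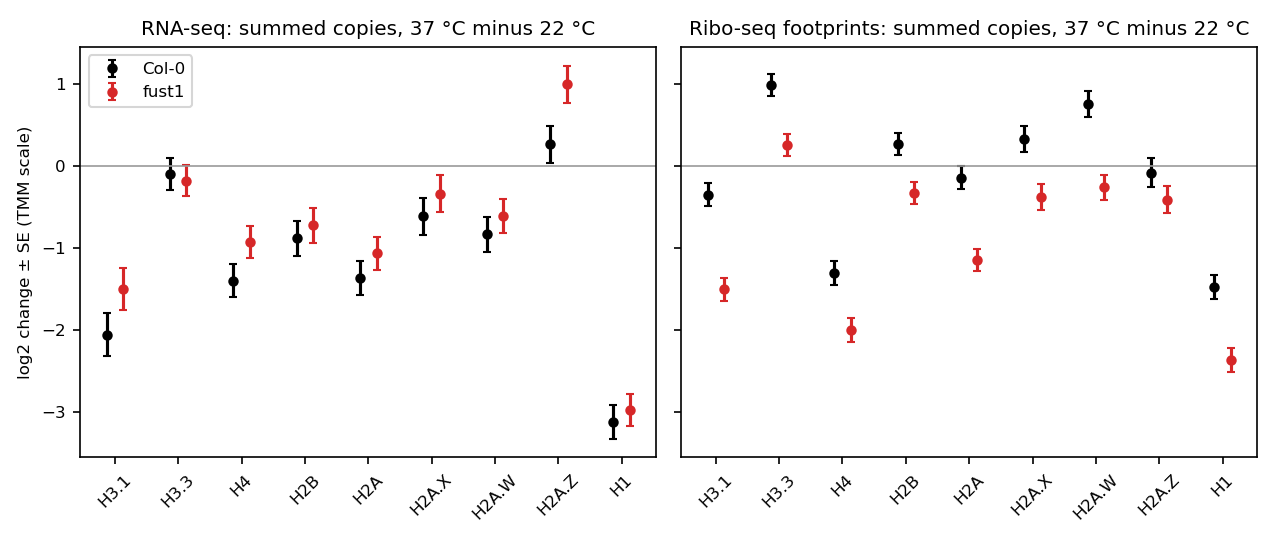
Heat response of the 9 summed families (37 °C minus 22 °C, log2 ± SE on the TMM scale) in RNA-seq (left) and Ribo-seq footprints (right), Col-0 in black and fust1 in red. In RNA H1 has the lowest value in both genotypes (-3.12 in Col-0), and in footprints fust1 lies below Col-0 for every family; the positive footprint values of Col-0 (H3.3, H2B, H2A.X and H2A.W) are negative by library totals.

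In RNA, heat by genotype gave 0 calls among 40 genes in edgeR, 1 in DESeq2 and 10 at an unadjusted p under 0.05 (0.00% of all genes higher and 0.0310% lower), with 33 of 40 estimates above 0. Without replicate 1 of the Col-0 37 °C RNA-seq, 7 were called. TE gave 6 genes, all lower (0.129% of all genes lower, 0.965% higher), with a median of -1.06 beside 0.17. They were AT3G46320 (-4.72 ± 0.75, adjusted p = 0.00971), HTB2 (-2.22 ± 0.43, adjusted p = 0.0259), AT5G10400 (-2.21 ± 0.45, adjusted p = 0.0294), HTA2 (-2.17 ± 0.43, adjusted p = 0.028), AT1G09200 (-2.06 ± 0.39, adjusted p = 0.024) and AT1G06760 (-1.62 ± 0.36, adjusted p = 0.0403). DESeq2 called 11 and leaving out 1 library gave 1 to 18, the highest without replicate 1 of the Col-0 37 °C RNA-seq. A count of 1 followed when either Col-0 Ribo-seq replicate 1, Col-0 22 °C RNA-seq replicate 1, either fust1 22 °C Ribo-seq library, fust1 22 °C RNA-seq replicate 1 or fust1 37 °C Ribo-seq replicate 2 was left out. Leaving out Col-0 22 °C RNA-seq replicate 2 gave 2, and fust1 37 °C RNA-seq replicate 1 gave 3. H3.1 as a sum was lower in TE in fust1 at 37 °C (-1.26 ± 0.30, adjusted p = 0.048), a call lost in 15 of the 16 fits that left out 1 library, and its heat by genotype value did not pass (-1.71 ± 0.42, adjusted p = 0.0559).

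Genes that load and exchange histones fell in some cases and did not pass in many. Of 26 chaperone and remodeller genes, RNA fell in heat for 10 and rose for 2 in Col-0 and fell for 6 and rose for 2 in fust1, and footprints fell for 12 and rose for 2 in Col-0 and fell for 12 and rose for 1 in fust1. All genes gave 18.2% lower and 19.2% higher in RNA in Col-0, and 17.9% and 18.8% in fust1. In footprints they gave 31.8% lower and 27.8% higher in Col-0, and 31.2% and 27.6% in fust1. By library totals 20 of the 26 RNAs were lower in Col-0 and 17 in fust1, and 0 were higher, beside 57.8% and 51.3% of all genes lower. FAS1, a subunit of the CAF-1 chaperone that loads H3.1 with H4 at replication, fell in RNA (-2.39 in Col-0 and -1.78 in fust1). UBN2, of the HIRA complex that loads H3.3, changed in RNA by -2.52 in Col-0 (edgeR adjusted p = 0.00236). SWC4, of the SWR1 complex that loads H2A.Z, changed in RNA by 1.004 ± 0.21 in Col-0 (edgeR adjusted p = 0.00391). By library totals that SWC4 change was -0.04 and not called. PIE1, also of SWR1, was called lower by library totals in RNA (-1.74 in Col-0 and -2.28 in fust1) and in footprints (-10.8 and -4.65). NAP1;3 and NAP1;2, chaperones of H2A with H2B, fell in footprints (-2.97 and -2.22 in Col-0, -2.10 and -1.02 in fust1). MSI1, another CAF-1 subunit, rose in footprints on the TMM scale (1.68 and 0.55), but by library totals was at -0.11 and -1.13. By library totals 22 of the 26 footprints were lower in Col-0 and 24 in fust1, beside 79.1% and 82.0% of all genes. In heat by genotype 4 of the 26 were higher in footprints and 1 was lower, beside 5.49% and 3.21% of all genes.

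Genes of S phase were split. Of 14, RNA fell for 4 in Col-0 and fell for 3 and rose for 1 in fust1, with MCM2, of the replicative helicase, at -1.44 and -1.24 (18.2% of all genes were lower in Col-0, and 17.9% lower and 18.8% higher in fust1). By library totals 12 of the 14 RNAs were lower in Col-0 and 10 in fust1, with 57.8% and 51.3% of all genes. In footprints 8 rose and 6 fell in Col-0 on the TMM scale and 3 rose and 6 fell in fust1, against 27.8% and 31.8% of all genes in Col-0 and 27.6% and 31.2% in fust1. By library totals 1 rose and 12 fell in Col-0 (3.76% and 79.1% of all genes) and 13 fell in fust1 (82.0% of all genes). PCNA2, the sliding clamp, rose by 2.22 and 1.35 (0.42 and -0.33 by library totals), and TSO2, a subunit of ribonucleotide reductase, by 1.38 in Col-0 (-0.41 by library totals), while RBR1, the retinoblastoma homologue that restrains entry into S phase, fell (-2.62 and -1.81). Heat by genotype in footprints gave 5 of 14 lower and a median of -0.71, beside 3.21% of all genes lower. Of 6 mitotic genes, 2 fell in RNA in Col-0 (18.2% of all genes were lower), CYCB1;1 (-2.77 ± 0.49, adjusted p = 0.00141) and CYCB1;2 (-2.19 ± 0.64, adjusted p = 0.0317). In fust1 the 6 RNAs passed in neither direction, with a median of -0.02. By library totals 4 were lower in Col-0 and 2 in fust1, beside 57.8% and 51.3% of all genes. Mitotic footprints were higher for 1 and lower for 2 of 6 in Col-0 (median 0.17) and lower for 4 in fust1 (median -0.68). Of all genes 27.8% were higher and 31.8% lower in Col-0, and 31.2% lower in fust1. By library totals 5 and 6 mitotic footprints were lower, beside 79.1% and 82.0% of all genes. Heat by genotype in footprints was lower for 2 of the 6 mitotic genes, with a median of -1.03, beside 3.21% of all genes lower. Their summed RNA was 113 to 122 CPM in fust1 at 37 °C, against the 82.5 and 17.8 CPM in Col-0 given above. Summed S-phase RNA was 239 and 142 CPM in Col-0 and 288 and 209 CPM in fust1 at 37 °C, against 262 to 320.5 CPM at 22 °C. The part of these levels in the histone changes was not tested.

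Markers of organs also differed between temperatures. Summed RNA of 6 root markers was 203 to 511 CPM in the 4 libraries at 37 °C and 519.6 to 1637 CPM in the 4 at 22 °C, the 2 extremes of the latter being the fust1 libraries. None of the 6 was at 0 in any RNA group. Summed RNA of 6 leaf markers was 46588 to 86740 CPM at 37 °C and 35311 to 52691 CPM at 22 °C. In footprints the root markers summed to 1043 to 1338 CPM at 22 °C and 269 to 389 CPM at 37 °C, where 1 root marker was at 0 in Col-0, and the leaf markers were at 11654 to 16201 CPM at 22 °C and 10767 to 11933 CPM at 37 °C, with overlap. Of 6 root RNAs, 2 were lower in Col-0 and 3 in fust1 (18.2% and 17.9% of all genes). By library totals 6 and 3 were lower (57.8% and 51.3% of all genes). Of 6 leaf RNAs, 2 were higher in Col-0 and 1 in fust1 (19.2% and 18.8% of all genes). By library totals 0 leaf RNAs were higher, while 2 were lower in Col-0 and 1 in fust1. SCR, a regulator of root tissue layers, fell in RNA (-4.79 and -3.05). GAPA, a Calvin cycle enzyme, rose in RNA on the TMM scale (0.99 and 0.91), but was at -0.06 and -0.0057 by library totals. Its footprints fell (-3.31 and -1.83). Of the 6 leaf markers, 4 were lower and 1 higher in footprints in Col-0 (31.8% and 27.8% of all genes). In fust1 3 were lower and 2 higher (31.2% and 27.6% of all genes). By library totals all 6 were lower in both, beside 79.1% and 82.0% of all genes. The part of organ makeup in the histone changes was not tested.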

How the data were processed

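RNA-seq and Ribo-seq libraries of whole Arabidopsis seedlings were analysed, 2 per group. The authors deposited raw counts of reads for each gene as whole numbers, with no normalization. The submitters' processing notes list TAIR10, Bowtie 1.0.1, featureCounts 1.6.2, STAR 2.7.3a and fastp 0.19.7. The sources used here do not give their roles, the counted feature, the use of strand or the treatment of reads that map to several copies. RefSeq (TAIR10.1) served for names and neighbours only. The gene behind the fust1 name was not in that table and is not analysed here.

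Genes passing filterByExpr (minimum count 10, by group) were scaled by TMM within each assay and tested with edgeR 4.0.16 (quasi-likelihood, robust) in R 4.3.3, over 19340 genes for RNA, 18445 for footprints and 17816 for TE. Each assay left 4 residual degrees of freedom and TE left 8. TE was the interaction of assay with each comparison over 16 libraries. Adjusted p-values are Benjamini-Hochberg values over all genes, and the SE of a log2 change is its size divided by the root of its F statistic. Permuting 2 against 2 libraries exactly gives no p below 0.333, so no such test was made. For family sums the copies were replaced by 1 row in the whole table. For the contrasts with H3.3 or H2A.Z, the library size was the summed count of that variant, without TMM. The 2 libraries of a group differed by 5.39 to 29.0 times the counting noise (chi-square per degree of freedom), so no pair had counts alike within sampling noise. The procedure was also run on simulated counts with known changes and the same spread for every gene. These had neither the uneven replicates nor the shift in scaling between temperatures, so that run could not check the heat changes reported here.

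Members described with the value in every library were the 2 per family with the most counts, those called in heat by genotype in any assay, the H1 genes, and those opposite in sign to their family sum with both called. Up to 3 genes per other list and assay with the smallest adjusted p in heat in Col-0 could be named. The other lists were histone chaperones and remodellers, S-phase genes, mitotic genes, root markers and leaf markers. Members and lists were chosen with earlier results of these data known. The rule that listed the histone genes itself used annotation and no measured value. Alternatives were a replicate block, RLE scaling, library totals, DESeq2 1.42.0, leaving out 1 library at a time, keeping every gene with 1 count or more, and fitting only the groups compared.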

Additional observations from a re-analysis of the deposited data

Results flagged for a closer look

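The heat response (37 °C minus 22 °C) differed between fust1 and Col-0, by the edgeR test of heat by genotype, for 8 family sums and 15 genes in footprints and for 6 genes in TE; each value is the log2 response of fust1 minus that of Col-0. Among footprint sums it was -1.15 ± 0.19 (SE, adjusted p = 0.00036) for H3.1, -1.01 ± 0.22 (SE, adjusted p = 0.00409) for H2A.W, -1.002 ± 0.20 (SE, adjusted p = 0.00158) for H2A and -0.89 ± 0.20 (SE, adjusted p = 0.00643) for H1. It was -0.73 ± 0.19 (SE, adjusted p = 0.0172) for H3.3, -0.71 ± 0.23 (SE, adjusted p = 0.0474) for H2A.X, -0.70 ± 0.20 (SE, adjusted p = 0.0279) for H4 and -0.60 ± 0.19 (SE, adjusted p = 0.0439) for H2B, and these 4 lost the call in at least 4 of the 8 fits that left out 1 library.

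Among genes the footprint difference was -1.65 for AT5G10400, -1.20 for AT1G09200 and -1.20 for AT5G65360 (H3.1), -0.82 for AT4G40030 and -0.77 for AT4G40040 (H3.3), and -1.47 for AT3G46320 (H4). It was -1.27 for HTB2 and -0.74 for HTB4 (H2B), -1.38 for HTA2 and -1.11 for HTA10 (H2A), and -0.80 for H2AXA (H2A.X). It was -1.15 for HTA7 and -1.04 for HTA6 (H2A.W), -2.11 for HTA8 (H2A.Z, 17 to 51 footprints a library) and -1.22 for AT1G06760 (H1). Of the 8 fits that left out 1 library, the call was lost in 7 for HTA8, 6 for H2AXA, 5 for HTA7 and AT5G65360, 4 for AT3G46320 and AT4G40040, 3 for HTA6 and HTB4, 2 for AT4G40030 and 1 for HTA2.

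In TE the difference was -4.72 for AT3G46320, whose RNA in Col-0 at 37 °C rested on 4 and 1 counts, -2.22 for HTB2, -2.21 for AT5G10400, -2.17 for HTA2, -2.06 for AT1G09200 and -1.62 for AT1G06760. Of the 16 such fits, the call was lost in 13 for AT1G06760, 10 for AT5G10400 and HTA2, 8 for AT1G09200 and 7 for HTB2.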

How the results depend on the processing

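Scaling by library totals turned most footprint rises of heat into falls. In Col-0 the footprint change became -0.81 for the H3.3 sum, -1.05 for H2A.W, -1.46 for H2A.X and -1.53 for H2B. For genes it became -1.31 for H2AXA, -1.78 for HTA10, -1.75 for GAMMA-H2AX, -0.64 for HIS1-3, -1.15 for AT3G53650, -0.80 for AT4G40030, -0.68 for AT4G40040, -0.010 for HTA12, -1.11 for AT5G10980, -0.62 for HTA7, -0.89 for RAT5, -1.43 for HTA6 and -0.51 for HTB4. In fust1 it became -1.42 for the H3.3 sum, -1.38 for AT3G53650, -1.49 for AT4G40030, -1.32 for AT4G40040, -0.28 for HTA12, -1.41 for AT5G10980, -1.65 for HTA7, -1.49 for RAT5 and -1.13 for HTB4. RNA changes of Col-0 became -0.75 for the H2A.Z sum, -1.002 for AT4G40030, -0.63 for RAT5 and -0.65 for HTB4, and those of fust1 became -0.84 for HTA7 and -0.72 for AT5G59690. The TE change of HTB11 (AT3G46030) in fust1 became -0.67.

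Counts of histone genes called moved as follows. Under library totals there were 3 for footprints at 37 °C between genotypes, 8 for footprint heat by genotype, and 12 and 14 for TE heat in Col-0 and fust1. In RNA at 37 °C between genotypes there were 4 with DESeq2 and 3 without the filter, and 1 with each for the heat by genotype test. For TE that test gave 11 with DESeq2. With only the groups compared, footprints between genotypes at 22 °C gave 23 and TE between genotypes at 37 °C gave 0; heat by genotype has no such fit. Leaving out 1 library gave 0 to 21 calls for footprints between genotypes at 22 °C, 2 to 7 at 37 °C and 7 to 13 for heat by genotype, 0 to 11 for RNA at 37 °C with 0 to 7 for its heat by genotype test, and 1 to 14 and 1 to 18 for the same comparisons of TE. The other counts stayed within 1.5 times their value under these settings. The contrast of H3.1 with H3.3 ranged from 0.31 to 1.25 (RNA at 37 °C), -1.35 to -0.41 (TE at 37 °C), -1.60 to -0.66 (TE heat by genotype) and 0.21 to 1.15 (TE heat in Col-0), called at the far end of each without replicate 1 of the Col-0 37 °C RNA-seq. H2A against H2A.Z in fust1 footprints ranged from -0.93 to -0.52. Some single genes reversed when 1 library was left out: AT2G28720 in TE of fust1 (-0.43 to 2.95), and HTA8 (-1.16 to 1.01) and HTA11 (-0.95 to 0.57) in RNA of Col-0. A further 284 estimates changed sign without a call on either side and were counted as the same. Where no reason is given, the cause was not tested.

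Replicate numbers were not shown to pair samples: deviations of same-numbered libraries correlated from -0.26 to 0.21. With a replicate block, RNA heat in Col-0 gave 25 calls, footprint heat by genotype 14 and TE heat by genotype 5, and all 15 counts stayed within 1.5 times. Depth limits 7 genes in RNA and 11 in footprints, with fewer than 25 counts in both libraries of at least 1 group, among them AT2G28720, AT5G10390, AT3G46320 and HIS1-3 in both assays and HTA8 in footprints.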
